A study of Mus musculus with 30 samples.

Results

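Lachnospiraceae outside the NK4A136 group were followed in stool of mice lacking Gpr15l (Gpr15l-/-, KO) and of wild-type (WT) mice before, during and after the genotypes shared cages. The members are the sequence variants that the authors' taxon labels place in the family Lachnospiraceae but not in its NK4A136 group and that had reads in at least 1 of 30 libraries. They were 242 of 949 bacterial variants, 131 of 483 in the first set of libraries (weaning and co-housing) and 111 of 466 in the second (re-separation). No variant had reads in both sets of libraries, so variants were compared within a set and genera across all groups. The members carried 16 genus names, and 124 of them had no genus name (78) or the genus label uncultured (46). These 124 were summed here as unclassified Lachnospiraceae, which makes 17 taxa.

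Lachnospiraceae are anaerobic, mostly spore-forming Clostridia of the mammalian colon. They ferment plant polysaccharides and cross-fed acids to short-chain fatty acids, and several genera form butyrate, a main fuel of the colonic epithelium. Spores let such bacteria pass from one animal to another in faeces, which mice eat. Gpr15l encodes a peptide made by epithelial cells of gut and skin that binds the lymphocyte receptor GPR15.

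All 30 libraries were of the V4 region of the bacterial 16S rRNA gene, amplified from stool DNA of female mice. The KO and WT groups held 5 libraries each at weaning at about 4 weeks of age (libraries 1 to 5 and 6 to 10), after 4 to 5 weeks in cages of mixed genotype (11 to 15 and 16 to 20) and after a further 6 weeks of re-separation (21 to 25 and 26 to 30). No mice kept apart over the co-housing weeks were sampled, so co-housing cannot be told apart from age, nor re-separation from the change of library set. The labels name no cage or litter and follow no mouse over time, so a p-value reflects the spread among these libraries and not among cages. Bacterial reads hold no Gpr15l sequence, so each genotype rests on its label. Libraries held 10560 to 73776 reads. Reads not labelled as mitochondria were the total of every share, and reads are not independent molecules, so floors and counts cover counting error only. A share falls when other bacteria rise, and numbers of cells, copies of the 16S gene per cell and PCR yield cannot be told apart in it.

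At weaning the members took a larger share of the reads in KO mice, and after co-housing the genotypes overlapped. The 5 KO libraries held 2.19%, 3.53%, 7.91%, 2.84% and 9.29% at weaning, a mean of 5.15% ± 3.22 (SD, n = 5). The 5 WT libraries held 0.698%, 0.830%, 1.84%, 1.14% and 0.503%, a mean of 1.00% ± 0.524 (SD, n = 5). Every KO library stood above every WT library, and the lowest KO library and the highest WT library were 2.19% and 1.84%. Libraries 1, 5, 11 and 19 had stood apart from their groups in earlier results of these data, and without them the KO mean at weaning was 4.76% ± 2.75 (SD, n = 3). The sum was given no test, because the members were chosen with results of these data known.

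After co-housing the KO libraries held 5.59%, 8.32%, 4.47%, 9.37% and 12.8%, a mean of 8.12% ± 3.30 (SD, n = 5). The WT libraries held 12.3%, 12.3%, 7.42%, 2.53% and 6.21%, a mean of 8.16% ± 4.20 (SD, n = 5). In WT mice every co-housed library lay above every weaning library, while the KO libraries of the 2 times overlapped. After re-separation the means were 3.03% ± 2.46 for KO (1.02% to 7.25%) and 3.75% ± 1.94 for WT libraries (2.09% to 7.02%; SD, n = 5 each), and again the genotypes overlapped. Without library 25, which held the 7.25%, the KO mean after re-separation was 1.98%.

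The NK4A136 group of the same family did not share the gap at weaning. It took up 0% to 4.74% of the reads of KO libraries and 0.879% to 2.92% of those of WT libraries. The members therefore made up 79.6% ± 13.7 of all Lachnospiraceae reads in KO and 35.5% ± 7.93 in WT mice at weaning (SD, n = 5 each), from 66.2% to 100% against 22.1% to 41.7%. After co-housing this proportion was 34.9% in KO and 37.5% in WT mice, and after re-separation 42.0% and 38.3%. Oscillospiraceae, another family of fibre-fermenting Clostridia, stood at 0.0757% to 5.09% (KO) and 0.267% to 1.12% (WT libraries) at weaning.

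**Figure D1:**
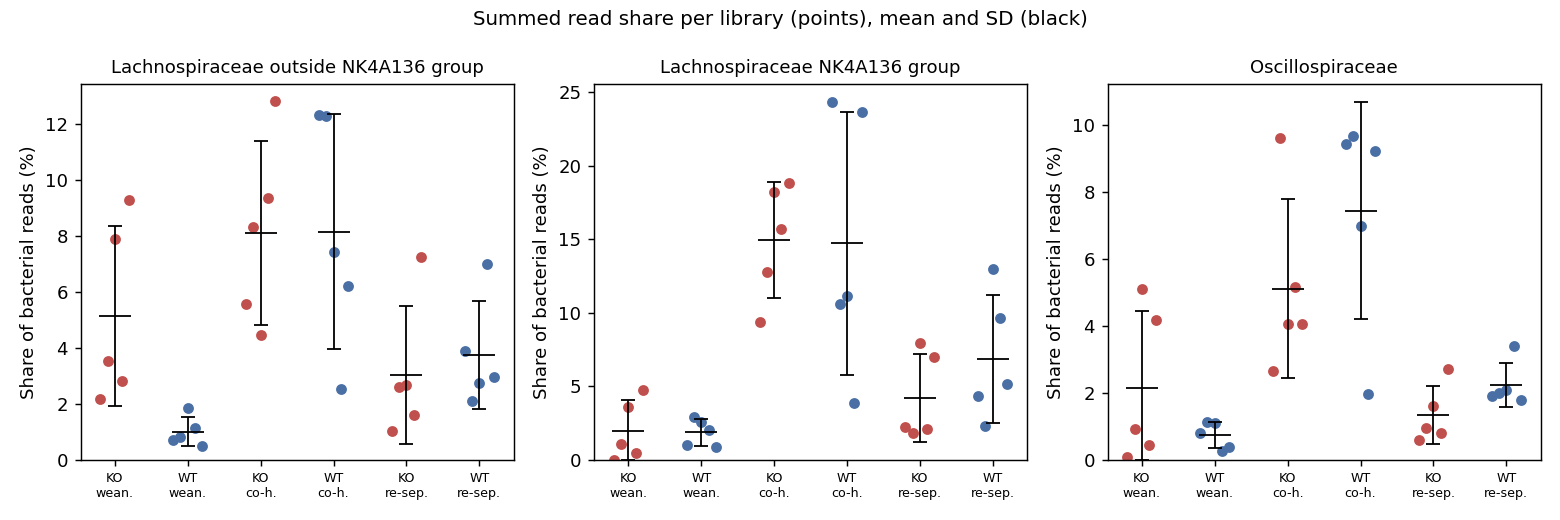
Summed share of bacterial reads (%, linear axis) of Lachnospiraceae outside the NK4A136 group, of the NK4A136 group and of Oscillospiraceae in the 6 groups. Points are libraries (KO red, WT blue), black bars the mean and SD of 5, cut at 0. In the first panel the KO points at weaning (2.19% to 9.29%) lie above all WT points (0.503% to 1.84%), and the genotypes overlap at both later times.

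The number of member variants overlapped between the genotypes at weaning. Thinned to 10491 reads, the smallest library, an expected 18.2 ± 9.19 member variants remained in KO libraries and 14.7 ± 8.21 in WT libraries (SD, n = 5 each). KO libraries 2 to 5 held 20.45 to 24.51, and library 1 held 2. WT libraries held 7.78, 10.99, 28.88, 13.95 and 12.14. Library 8 in WT mice thus held the most of all weaning libraries and library 1 in KO mice the fewest. Apart from these 2, set aside after their values were seen, the KO libraries stood above the WT libraries. Library 1 had 0 reads of the NK4A136 group and of unclassified Lachnospiraceae. Its members were a Blautia variant at 1.26% (row 275, by its place in the deposited table) and a Lachnoclostridium variant at 0.923% (row 314), both chosen after their values were seen, and neither had reads in any other library. After co-housing the number was 34.4 ± 12.8 in KO and 43.6 ± 12.1 in WT mice, and after re-separation 34.7 ± 12.3 and 41.8 ± 9.14 (SD, n = 5 each).

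Most members were rare and patchy. The median member had reads in 3 of 20 libraries in the first set and in 3 of 10 in the second. At least 10 reads in at least 3 libraries, the filter for every test, were reached by 63 of 131 members (48.1%) and 47 of 111 (42.3%), against 60.5% and 59.7% of all bacterial variants. The tested members held 93.18% and 93.15% of member reads. In a single library only were 32.1% and 33.3% of members, against 22.4% and 20.6% of all variants. Because the filter takes a variant that is high in 1 group only, counts below concern those that passed and not all members.

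At the level of taxa, butyrate formers were led by Roseburia, which ferments fibre with acetate to butyrate. Of 10 butyrate-forming genera searched for, 3 had reads (Roseburia, Acetatifactor and the [Eubacterium] xylanophilum group) and 2 passed the filter. Roseburia held 0%, 0.138%, 0.200%, 0.124% and 0.477% in KO and 0%, 0%, 0.0783%, 0.0247% and 0% in WT libraries at weaning. These values overlap, and the log2 fold change of 2.18 ± 1.04 (SE) did not pass the test (edgeR adjusted p = 0.108). After co-housing Roseburia held 0.291%, 1.53%, 0.406%, 1.34% and 3.07% in KO libraries and 1.56%, 0.446%, 0.457%, 0.0835% and 0.331% in WT libraries. It rose in both genotypes, by a log2 fold change of 2.78 ± 1.04 in KO (SE; edgeR adjusted p = 0.0362) and 3.73 ± 1.10 in WT mice (edgeR adjusted p = 0.0115). The call in KO mice was lost without library 1, 2, 3, 4 or 15, with log2 fold changes of 2.21 to 3.21 over all left-out libraries. That call was also lost when edgeR used DESeq2 size factors and with only the groups compared. After re-separation Roseburia stood at 0.156% ± 0.123 and 0.178% ± 0.0821 (SD, n = 5 each). Acetatifactor, first described from the mouse caecum, had 0 reads in all weaning libraries and 0.00966% ± 0.0216 in KO and 0.0262% ± 0.0255 in WT mice after co-housing. The rise did not pass the test in either genotype (edgeR adjusted p = 0.107 and 0.0528).

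The acetogens Blautia and Marvinbryantia, which can form acetate from hydrogen and carbon dioxide, both passed the filter. Blautia held 1.26%, 0.414%, 0.0352%, 0.0211% and 0% in KO libraries at weaning and 0.0298% in 1 of 5 WT libraries. It was higher in KO mice (log2 fold change 5.08 ± 1.36, SE; edgeR adjusted p = 0.00364), and was called whichever of the 10 libraries was left out, with 3.77 to 9.79, the upper value without WT library 6, the 1 WT library with reads. In WT mice it rose to 0.223%, 0.202%, 0.121%, 0.0982% and 0.0725% after co-housing (log2 fold change 3.78 ± 1.30; edgeR adjusted p = 0.0214), a call lost without library 7 or 10. The size of that rise rests on library 6 too, without which WT mice at weaning are at 0 reads and the log2 fold change is 8.48. Marvinbryantia held 0.0587% and 0.0272% in 2 KO libraries and 0.0447%, 0.0939% and 0.0371% in 3 WT libraries at weaning. In KO mice it fell to 0 reads after co-housing (at least 1.39-fold lower; edgeR adjusted p = 0.0416) and returned to 0.0217% ± 0.0211 after re-separation (at least 1.75-fold higher; edgeR adjusted p = 0.0357). Such bounds set the mean against a floor of 3 reads in each library with 0 reads. The fall was lost without library 1, 3, 4 or any of 11 to 15, and no bound is left without library 3. The return was lost without any of libraries 11 to 15, 21 or 22. Of the 10 fits with 1 library left out, the fall was kept in 2 and the return in 3. At these low shares both calls thus depended on most single libraries of their contrast, including libraries with 0 reads.

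ASF356, a Clostridium of the Altered Schaedler flora (a defined community used to colonise germ-free mice), had overlapping shares in all groups. In KO mice its means were 0.142% ± 0.110, 0.307% ± 0.154 and 0.181% ± 0.104 in the order of the times (SD, n = 5 each). The WT means were 0.0724% ± 0.0775, 0.219% ± 0.210 and 0.142% ± 0.0826. No contrast of the taxon passed the test in edgeR, while single variants of it did.

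Other named genera were low. Lachnoclostridium, a broad genus that includes bile-acid-transforming species, held 0.923% in library 1 and 0% to 0.132% in the other KO libraries at weaning. WT libraries held 0% to 0.0766%, and the difference did not pass the test (edgeR adjusted p = 0.129). Tuzzerella had 0 reads in all 5 KO libraries at weaning and 0.0575% and 0.0363% in 2 of 5 WT libraries, at least 1.20-fold higher in WT (edgeR adjusted p = 0.00769), with no bound left without library 7. In KO mice it rose to 0.0903%, 0%, 0.211%, 0.0725% and 0.165% after co-housing (6.89-fold or more; edgeR adjusted p = 0.000738). WT libraries then held 0.239%, 0.136%, 0.150%, 0.0246% and 0.255%, and the genotypes overlapped. Both calls were kept without any 1 of the 10 libraries of their contrast.

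Among taxa with provisional names, UCG-001 was the most abundant. At weaning it held 0%, 0%, 1.53%, 1.04% and 1.95% in KO libraries, either none or more than any WT library. WT libraries held 0.230%, 0.160%, 0.178%, 0.168% and 0.148%, a narrow range. The difference of the group means did not pass the test (log2 fold change 1.49 ± 1.06, SE; edgeR adjusted p = 0.289). Co-housed KO mice held 1.47% ± 1.53 and co-housed WT mice 2.19% ± 1.53 (SD, n = 5 each), with 0.638% ± 0.733 and 1.25% ± 0.952 once re-separated. The taxa A2 and GCA-900066575 had 0 reads in KO mice at weaning and rose by the end of co-housing. A2 reached 0.0469% ± 0.0540, a rise of at least 2.99-fold (edgeR adjusted p = 0.0144). GCA-900066575 reached 0.0412% ± 0.0429, a rise of at least 2.63-fold, or 1.69-fold without library 15 (edgeR adjusted p = 0.0154). A2 also rose from 0 reads to 0.0370% ± 0.0340 in WT mice (at least 3.06-fold; edgeR adjusted p = 0.0306), a call lost without library 6, 7, 8 or 10. In both genotypes the call of A2 was lost under DESeq2 and with only the groups compared.

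Variants with no genus held most of the excess in KO mice at weaning. Unclassified Lachnospiraceae held 0%, 2.37%, 5.26%, 1.29% and 6.55% in KO and 0.298%, 0.390%, 1.33%, 0.573% and 0.238% in WT libraries. A single variant, row 352, made up 3.14% of the reads of KO library 3 and 3.01% of those of KO library 5. The difference did not pass the test (log2 fold change 1.42 ± 0.80, SE; edgeR adjusted p = 0.178). The rows without a genus name were at 2.93% ± 2.62 in KO and 0.311% ± 0.345 in WT mice, and those labelled uncultured at 0.169% ± 0.126 and 0.254% ± 0.124 (SD, n = 5 each). After co-housing unclassified Lachnospiraceae stood at 3.93% ± 1.59 in KO and 4.36% ± 2.83 in WT mice.

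**Figure D2:**
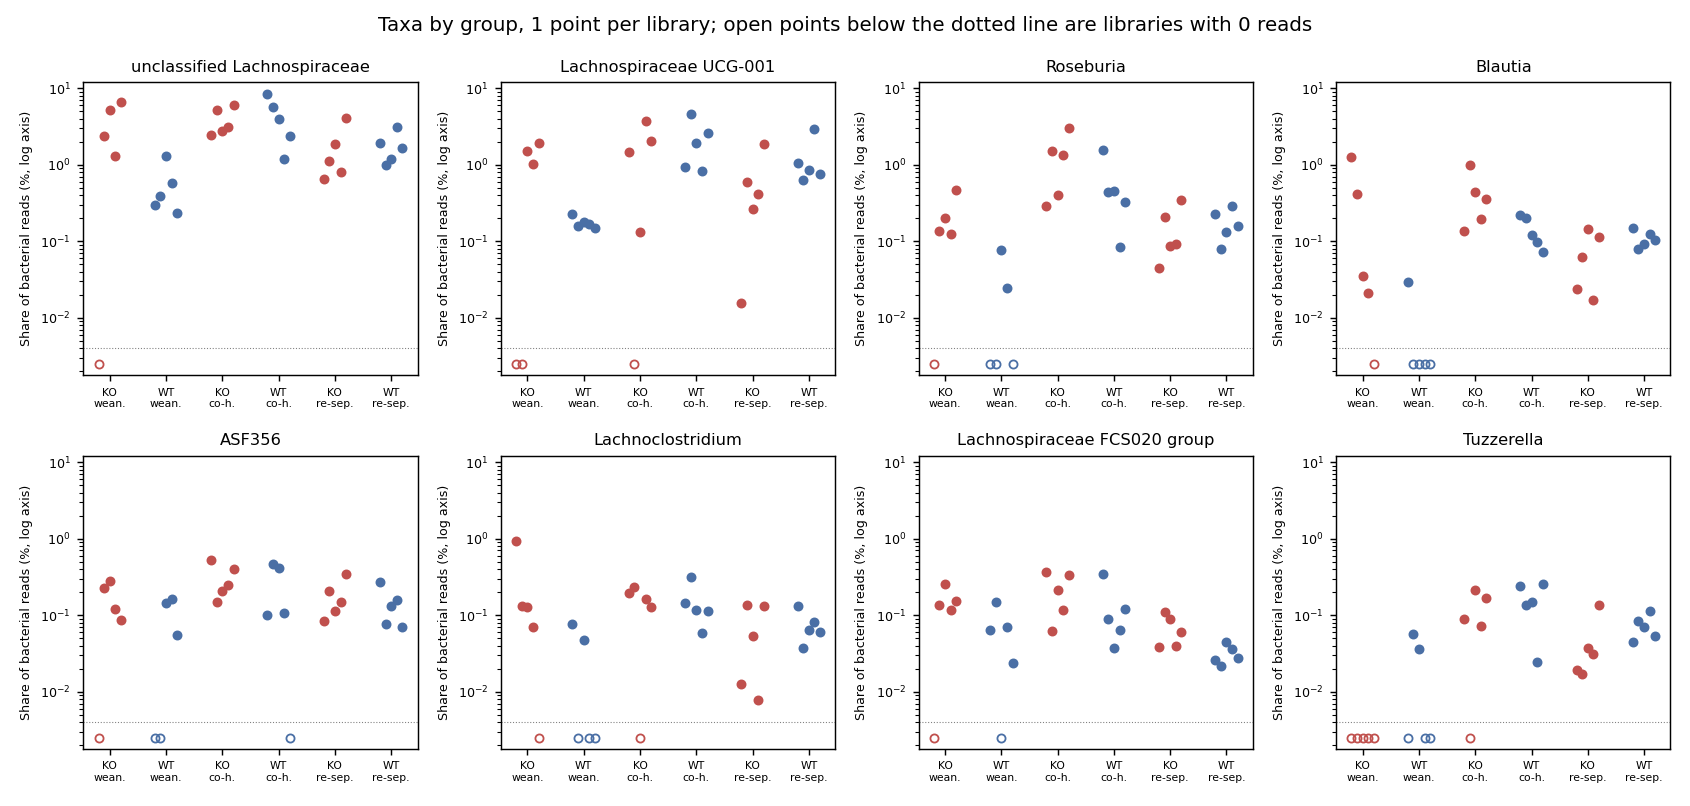
Share of bacterial reads (%, log axis) of the 8 member taxa with the highest mean share, 1 point per library, KO red and WT blue, in the 6 groups; open points under the dotted line have 0 reads. Tuzzerella has 5 open points in KO mice at weaning and 1 after co-housing, Blautia has 4 open points in WT mice at weaning and none later, and UCG-001 in WT mice at weaning lies in a narrow band.

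Of the 15 member taxa tested, 2 differed by genotype at weaning, Blautia higher and Tuzzerella lower in KO mice, against 23.6% of all 72 taxa tested (8.33% higher, 15.3% lower; edgeR, adjusted p under 0.05). When libraries were scaled by their size alone, which moved the median log2 fold change of all taxa by 0.43, 6 member taxa were called. Lachnoclostridium, UCG-004, Roseburia and unclassified Lachnospiraceae joined Blautia as higher in KO mice, and Tuzzerella was again lower. Of all taxa 6 were higher and 11 lower in KO mice, against 17 and 10 with that scaling. In a fit of only the 2 weaning groups the filter was applied again, so 7 member taxa were tested and 0 were called. Blautia and Tuzzerella were not among those tested, so that fit says nothing on their calls. After co-housing 0 of the 15 differed by genotype (all taxa 1.39%), with 2 at an unadjusted p under 0.05 and 0 by DESeq2. After re-separation 0 differed (all taxa 0%), with 1 at an unadjusted p under 0.05 and 0 by DESeq2.

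From weaning to co-housing 3 of the 15 rose in WT mice (Roseburia, Blautia and A2), against 29.2% of all taxa called and 20.8% called as rising. Library size scaling, which moved the median by 0.92, called 7, all rising. Of all taxa 15 rose and 6 fell, against 27 and 6 with that scaling and 12 and 8 with DESeq2 size factors. In KO mice 4 rose (Tuzzerella, A2, GCA-900066575 and Roseburia) and Marvinbryantia fell, against 31.9% of all taxa called, 19.4% rising and 12.5% falling. Of all taxa 14 rose and 9 fell, against 8 and 9 with DESeq2 size factors, which called 3 member taxa as rising and 1 as falling. The counts were 1 without library 7 or 10 and 6 without library 19 in WT mice, and 3 without library 1, 3, 4 or 15 in KO mice. With taxa at 0 reads set to their bounds, the median log2 fold change of the 15 was 1.61 in WT mice, where it was 0.63 over all taxa, and 0.56 in KO mice, where it was 0.46. From co-housing to re-separation 0 changed in WT mice (all taxa 1.39%; 1 at an unadjusted p under 0.05, 0 by DESeq2). In KO mice Marvinbryantia rose, against 19.4% of all taxa called and 15.3% rising, with 0 member taxa called without library 12, 13, 14, 15, 21 or 22. Roseburia missed the threshold there (log2 fold change -2.72 ± 1.03, SE; edgeR adjusted p = 0.0510), and its fall was called with library size scaling, without filter, under DESeq2, without libraries 1, 5, 11 and 19, and with only the groups compared. With library size scaling and with only the groups compared the rise of Marvinbryantia was not called. Over all taxa 11 rose and 3 fell, and with library size scaling 5 rose and 3 fell. The members' medians were then -0.81 in WT and -0.91 in KO mice, beside -0.23 and -0.32 over all taxa. From weaning to co-housing 20.0% of member taxa were called in WT and 33.3% in KO mice, and 6.67% in KO mice from co-housing to re-separation. These shares are near or below those of all taxa. The share rising in KO mice to co-housing, 4 of 15, is above the 19.4% of all taxa. The change of the genotype difference was called for 0 of the 15 between weaning and co-housing (all taxa 4.17%; 3 at an unadjusted p under 0.05, 1 by DESeq2). Leaving out library 6 gave 2 calls, and library 4, 10, 12 or 19 gave 1. Between co-housing and re-separation it was also called for 0 (all taxa 0%; 2 at an unadjusted p under 0.05, 0 by DESeq2).

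Few member variants were found in both genotypes at weaning. Of 71 member variants with reads, 29 were found only in KO, 26 only in WT and 16 (22.5%) in both genotypes. The other bacterial variants were in both in 107 of 266 cases (40.2%), while the related NK4A136 group, with 6 of 23 (26.1%), and the Oscillospiraceae, with 8 of 33 (24.2%), were near the members. Member variants found in both carried 36.7% of member reads in KO and 39.4% in WT mice, and the like values for the other variants were 91.0% and 90.1%. For the NK4A136 group they were 64.1% in KO and 20.7% in WT mice, and for the Oscillospiraceae 65.0% and 62.7%. After co-housing 65 of 117 member variants (55.6%) were in both genotypes, with 93.8% of member reads in KO and 79.1% in WT mice. The other variants were in both in 66.7% of cases, the NK4A136 group in 75.0% and the Oscillospiraceae in 75.4%. After re-separation 59 of 111 (53.2%) were in both, with 91.3% and 95.1% of member reads, and the other variants in 73.8%. Counting a variant as found only from 10 reads in a library, a limit chosen after seeing the data, the share of members in both genotypes was 25.5%, 56.1% and 63.0% in the order of the times, and that of the other variants 44.2%, 68.9% and 76.0%.

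**Figure D3:**
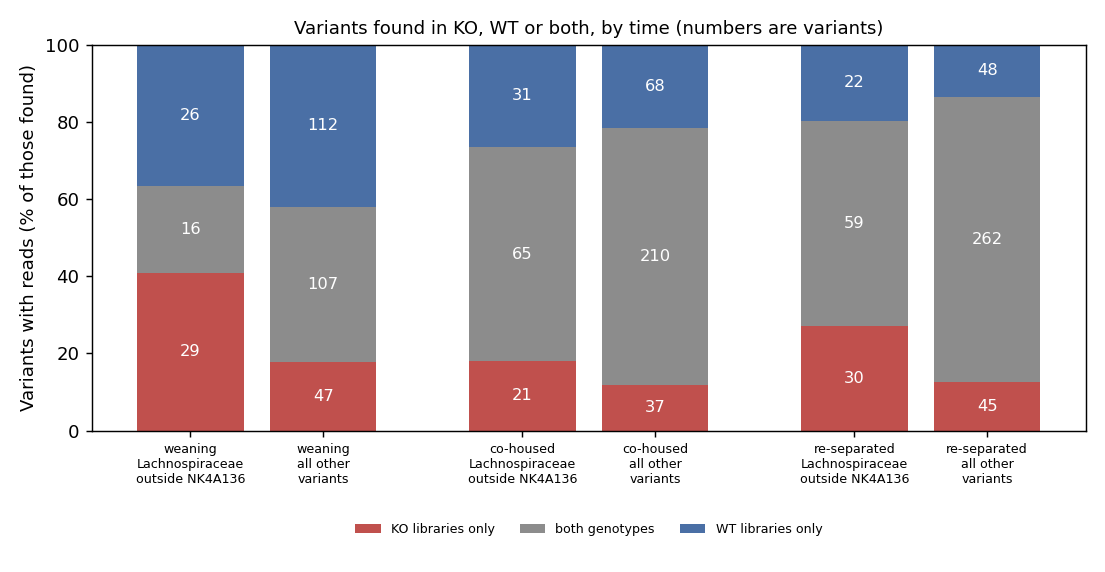
Variants with reads at each time (% of those found, linear axis), split into those in KO libraries only (red), in both genotypes (grey) and in WT libraries only (blue), for Lachnospiraceae outside the NK4A136 group and for all other bacterial variants; numbers in the bars are variants. The grey part of the members grows from 16 of 71 at weaning to 65 of 117 after co-housing and is 59 of 111 after re-separation.

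The genotypes differed at weaning in 14 of 63 members tested, of which 7 were higher and 7 lower in KO libraries (22.2%; edgeR, adjusted over 292 variants). This is near the 20.9% of all variants called, of which 6.85% were higher and 14% lower. All 14 had 0 reads in one of the genotypes, which was not counted for the other variants called. Leaving out library 1, 6 or 9 gave 9 calls, library 2, 5 or 8 gave 8, and library 3 gave 7. DESeq2 called 8, and 6 of the 14 were called whichever library of the contrast was left out.

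Among the variants higher in KO mice, the unclassified Lachnospiraceae row 282 was the most abundant. It held 0%, 1.32%, 1.19%, 0.649% and 2.45% in KO libraries and had no read in WT libraries, a difference of at least 92.8-fold, or 65.3-fold without library 5 (edgeR adjusted p = 0.00378). After co-housing row 282 was found in 4 of 5 KO libraries, with 2.91% in library 12 and 0.0227% to 0.0707% in the other 3, and in 3 of 5 WT libraries, with 0.150%, 0.479% and 0.0263%. These WT values lie below those of the 4 KO libraries that held it at weaning.

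UCG-001 row 270 held 0%, 0%, 1.20%, 0.779% and 1.42% in KO libraries at weaning and none in WT libraries, a difference of at least 56.2-fold, or 40.9-fold without library 5 (edgeR adjusted p = 0.0144). UCG-001 row 271 was found in the same 3 KO libraries at 0.335%, 0.260% and 0.534% (at least 18.7-fold, 12.3-fold without library 5; edgeR adjusted p = 0.0324, lost without library 3, 5 or any of 6 to 10). By the end of co-housing row 270 had fallen to 0 reads in KO libraries, by at least 54.9-fold, or 39.9-fold without library 5 (edgeR adjusted p = 0.0134), and 1 WT library held 0.340%. It was the 1 member called as falling in KO mice.

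Blautia row 371 held 0%, 0.414%, 0.0352%, 0.0211% and 0% in KO libraries at weaning and none in WT libraries, a difference of at least 7.78-fold (edgeR adjusted p = 0.0185). Without library 2 the bound was 1.17-fold and the call was lost. After co-housing it had reads in 5 of 5 KO libraries (0.0648% to 0.995%) and in 5 of 5 WT libraries (0.0196% to 0.0734%). ASF356 row 238 held 0%, 0.194%, 0.276%, 0.121% and 0.0858% in KO and 0 reads in WT libraries at weaning (at least 11.2-fold higher; edgeR adjusted p = 0.0324, lost without library 2, 3 or any of 6 to 10). After co-housing it stayed at 0 reads in WT mice and was found in 2 of 5 KO libraries. The other 2 calls higher in KO mice, an unclassified variant and a Roseburia variant, had bounds of 6.85-fold and 6.98-fold (2.37-fold without library 3 and 4.38-fold without library 5), and the call was lost without 8 and 10 of the 10 libraries.

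Among the variants lower in KO mice, the unclassified Lachnospiraceae row 363 held 0.209%, 0.0639%, 0.223%, 0.0445% and 0% in WT libraries and 0 reads in KO mice at weaning (at least 6.90-fold higher in WT; edgeR adjusted p = 0.0041). After co-housing it held 1.03%, 0%, 2.34%, 0.488% and 2.18% in KO libraries and 3.72%, 0.784%, 0.586%, 0.133% and 0.534% in WT libraries. The rise in KO mice was at least 77.2-fold (edgeR adjusted p = 0.00165) and was called whichever library was left out. Row 363 was the most abundant member of the first set, with co-housed means of 1.21% in KO and 1.15% in WT mice.

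UCG-001 row 529 held 0%, 0.160%, 0.0840%, 0.0791% and 0.103% in WT libraries at weaning and 0 reads in KO mice (at least 5.44-fold higher in WT; edgeR adjusted p = 0.0185). The unclassified rows 297 and 273 were found in 4 of 5 WT libraries each, at means of 0.0849% ± 0.0926 and 0.0502% ± 0.0561 (at least 5.42-fold and 3.21-fold higher in WT, 2.91-fold for row 297 without library 9; edgeR adjusted p = 0.0185 and 0.0194). UCG-001 row 396 was found in 3 of 5, at 0.0444% ± 0.0442 (at least 2.83-fold; edgeR adjusted p = 0.0311, lost without library 8 or any of 1 to 5). Rows 282 and 371 were called when libraries 1, 5, 11 and 19 were left out together, and the calls of the other 12 of the 14 were lost. UCG-001 row 398 was called on 1 WT library with 0.230% (at least 2.94-fold; edgeR adjusted p = 0.0324), with no bound left without library 6, and lost without any of libraries 1 to 6.

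From weaning to co-housing, 18 of 63 members changed in KO mice, 17 rising and 1 falling (28.6%; edgeR), near the 27.1% of all variants called (22.6% rising, 4.45% falling). Leaving out library 1 gave 7 calls, library 3 or 4 gave 9 and library 2 or 5 gave 10, DESeq2 called 11, and 1 was left without libraries 1, 5, 11 and 19. All 17 that rose were at 0 reads in KO libraries at weaning, which was not counted for the other variants that rose. Of the 17, 10 were present in WT libraries at that time and 7 were in neither genotype. Of the 7 lower in KO mice at weaning 6 were among those that rose, and of all variants lower in KO mice at weaning 28 of 41 were. The contrasts share the KO weaning libraries, so these counts are no independent support for each other.

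Next to row 363, UCG-001 row 396 rose from 0 reads to 1.07%, 0%, 0%, 2.88% and 1.42% in KO libraries (at least 68.7-fold, 39.8-fold without library 14; edgeR adjusted p = 0.00608). UCG-001 row 397 was found in the same 3 libraries at 0.361%, 0.739% and 0.405% (at least 19.2-fold, 12.2-fold without library 14; edgeR adjusted p = 0.0229, lost without library 1, 3 or 4). The unclassified rows 273 and 297 reached 0.168% ± 0.204 and 0.125% ± 0.178 (at least 10.8-fold and 7.97-fold, 5.49-fold without library 14 and 3.86-fold without library 15; edgeR adjusted p = 0.0122 and 0.0164).

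Butyrate-forming Roseburia rose through several variants, each in a few mice. Roseburia row 263 held 0.681% in library 14 and 1.16% in library 15 and 0 reads in the other KO libraries after co-housing (at least 23.5-fold, 10.9-fold without library 15; edgeR adjusted p = 0.0167, lost without library 1). Roseburia row 531 held 0.153%, 0.290% and 0.752% in libraries 13, 14 and 15 (at least 15.3-fold, 7.07-fold without library 15; edgeR adjusted p = 0.0192, lost without library 1). Each was also found in 3 of 5 co-housed WT libraries, and neither was found in any weaning library. Tuzzerella row 254 and Blautia row 381 were found in 4 of 5 co-housed KO libraries, at 0.104% ± 0.0771 and 0.111% ± 0.113 (at least 6.61-fold and 7.09-fold, 4.10-fold for row 381 without library 15; edgeR adjusted p = 0.0200 and 0.0218). Both were in WT mice at weaning, in 2 of 5 and 1 of 5 libraries, and in 5 of 5 WT libraries after co-housing. The other 8 variants that rose had bounds of 1.20-fold to 12.5-fold, and each was lost when 1 of several libraries was left out.

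In WT mice 0 of 63 members changed between weaning and co-housing in edgeR (all variants 0.685%), with 26 at an unadjusted p under 0.05. DESeq2 called 3, and edgeR 2 without library 19 and 4 without libraries 1, 5, 11 and 19. The change of the genotype difference between the times was called for 5 of 63, 2 towards higher and 3 towards lower in KO mice, near the 6.16% of all variants (4.11% and 2.05%). They were UCG-001 row 270, the unclassified rows 363 and 282, ASF356 row 240 and Roseburia row 540. Roseburia row 540 was in 3 libraries only, at 0.0423% in 1 KO library at weaning and at 0.794% and 0.0611% in 2 co-housed WT libraries. Leaving out library 1 gave 1 call, library 16 gave 2, and library 4, 9, 10, 11 or 17 gave 3.

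**Figure D4:**
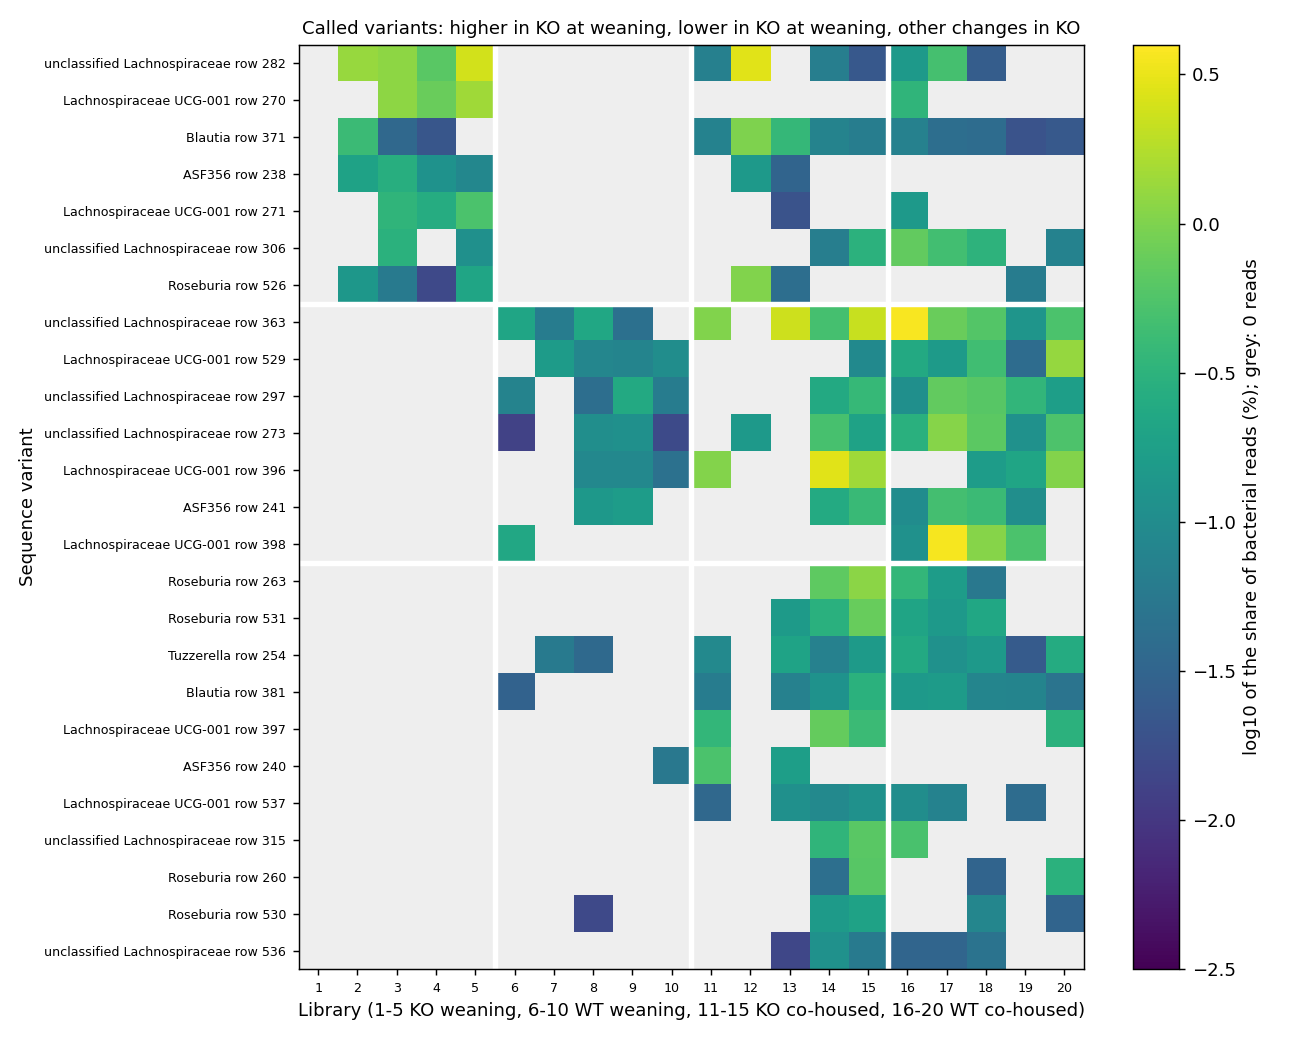
Shares of bacterial reads (log10 of %, colour; grey is 0 reads) of 25 member variants called at weaning or between weaning and co-housing in KO mice, in libraries 1 to 20. White lines part the groups of libraries and, from top to bottom, 7 variants higher in KO mice at weaning, 7 lower, and 11 further variants called as rising in KO mice; the lower blocks are grey in libraries 1 to 5 and coloured in several of libraries 11 to 15.

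Variants restricted to a genotype at weaning were mostly found in both after co-housing. With reads in at least 2 libraries of one genotype and none of the other, 12 members were found in KO mice only. After co-housing 8 of them were in both genotypes, 2 in KO only, 1 in WT only and 1 in neither, so 9 (75.0%) were in WT mice. In the other direction 9 members were in WT mice only, and 8 (88.9%) were in both genotypes after co-housing and 1 in neither. Among all other variants 17 of 26 (65.4%) and 42 of 53 (79.2%) were found in the other genotype. A further 60 member variants had reads after co-housing and in no weaning library. They made up 19.8% ± 13.1 of the member reads of KO mice and 15.3% ± 5.05 of those of WT mice (SD, n = 5 each), against 1.79% ± 1.24 and 3.11% ± 1.71 of the reads of other variants.

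After co-housing 1 of 63 members differed by genotype (all variants 1.03%, all 1.03% lower in KO mice). UCG-001 row 398 held 0.117%, 3.66%, 1.09%, 0.530% and 0% in WT libraries and 0 reads in KO mice (at least 87.0-fold higher in WT, 35.0-fold without library 17; edgeR adjusted p = 0.0224). The call was lost without library 11, 12, 14, 15 or 17, and 0 members were called by DESeq2. At weaning the variant had been in library 6 alone. In co-housed mice rows 396 and 397 made up most UCG-001 reads in KO libraries 11, 14 and 15, and row 398 most of those in WT libraries 17 to 19. Rows 396 and 397 were also found together in WT library 20. Row 396 was in 3 of 5 libraries of each genotype, at means of 1.07% in KO and 0.286% in WT mice. Neither row 396 nor row 397 was called between the co-housed genotypes (edgeR adjusted p = 0.985 for each).

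After re-separation 1 of 47 members differed by genotype (all variants 1.44%, 0.719% higher in KO mice), with 5 at an unadjusted p under 0.05. ASF356 row 1061 held 0.0827%, 0.0547%, 0.115%, 0.0928% and 0.199% in KO libraries and 0 reads in all 5 WT libraries, at least 19.0-fold higher (edgeR adjusted p = 0.0105). It was called in every setting and whichever library was left out, and without library 25 the bound was 15.1-fold. DESeq2 called 2 members, and edgeR called 3 without library 25. Of all 278 variants tested, 0.719% had reads in 5 of 5 KO and 0 of 5 WT libraries at this time, and row 1061 was the 1 member among them. At weaning 0 of 63 members tested reached that pattern in either direction. Of all 292 variants tested, 3 reached it for KO and 9 for WT mice. After co-housing 0 members and 0 of all variants reached it in either direction.

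Libraries differed in which ASF356 variant they held. Of 16 weaning and co-housing libraries with ASF356 reads, 14 held a single variant of the 4 and 2 held 2. Row 238 was in 4 KO libraries at weaning. Row 241 was in 2 WT libraries at weaning, at 0.143% and 0.163%, and after co-housing in 2 of 5 KO and 4 of 5 WT libraries. It was among the 7 members called lower in KO mice at weaning and the 17 called as rising in KO mice. DESeq2 did not call it at weaning, and both calls were lost without libraries 1, 5, 11 and 19. Row 241 is named here after its values were seen. Row 240 was at 0.0556% in WT library 10 at weaning and at 0.526% and 0.175% in 2 co-housed KO libraries. After re-separation row 1062 held 0%, 0.155%, 0%, 0.0566% and 0.149% in KO and 0.275%, 0.0763%, 0.133%, 0.158% and 0.0705% in WT libraries. Of these 10 libraries 7 held 1 of the 2 variants and 3 KO libraries held both. Whether row 1061 or 1062 is a variant of the first set cannot be read from the files, which hold no sequences and no variant with reads in both sets.

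**Figure D5:**
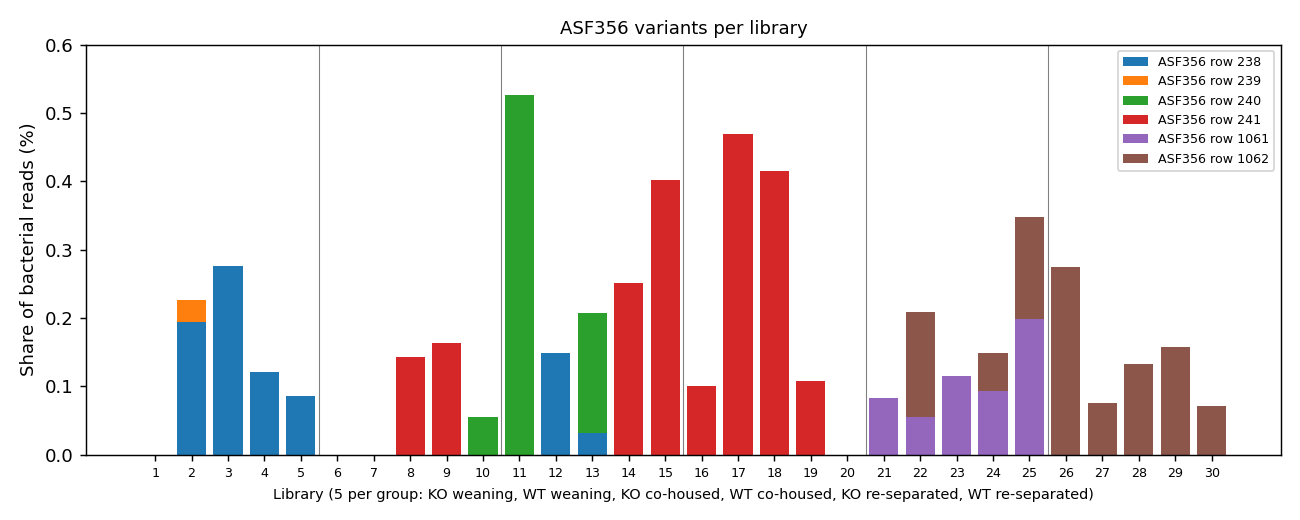
Share of bacterial reads (%, linear axis) of the 6 ASF356 variants, stacked for each of the 30 libraries; thin lines part the 6 groups and colours mark variants. Row 238 is in 4 of the 5 KO libraries at weaning, row 241 most co-housed WT libraries, and row 1061 is in libraries 21 to 25 (0.0547% to 0.199%) and in none of 26 to 30.

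The other leading variants of the re-separation libraries were found in both genotypes. UCG-001 row 1421, the most abundant at a mean of 0.604% of the 10 libraries, held 0.0159%, 0%, 0%, 0.209% and 1.37% in KO and 0.795%, 0.453%, 0.535%, 2.17% and 0.499% in WT libraries. The unclassified rows 1331, 1147, 1185 and 1132 followed, at 0.422%, 0.222%, 0.181% and 0.164%. UCG-001 rows 1422 and 1764 stood at 0.120% and 0.103%. None of these 7 was called, and their KO and WT libraries overlapped. In the first set the unclassified row 352, the second in mean share at 0.474%, was likewise in both genotypes at weaning, with 0%, 0%, 3.14%, 0.196% and 3.01% in KO and 0%, 0.0766%, 0.220%, 0.0346% and 0.0503% in WT libraries, and was not called.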

How the data were processed

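Stool 16S V4 amplicons (515F and 806R primers, 25 PCR cycles, paired reads of 151 bases, per the labels' protocols) were deposited by the authors as raw read counts per sequence variant with a taxon label and no sequence. R 4.5.1 and limma are named in the submitters' processing notes without a role, and the sources used here give neither the variant caller's settings nor the taxonomic reference. Of 3697 rows 953 had reads, and 4 mitochondrial ones were left out. Libraries held 10560 to 73776 reads. Counts were summed by genus, or where none was named by the lowest rank named, and expressed as a percent of bacterial reads. Variants and taxa with at least 10 reads in at least 3 libraries were tested in edgeR 4.0.16 (R 4.3.3, TMMwsp factors, robust quasi-likelihood, 1 coefficient per group, Benjamini-Hochberg adjustment over all features tested, threshold 0.05), after the script was tested on simulated data. DESeq2 1.42.0, other scalings, no filter, fewer groups and left-out libraries were alternatives. Named taxa were the 6 most abundant and all called; named variants were up to 10 called per contrast by smallest p-value, the 8 most abundant per library set, and those in 5 of 5 libraries of one genotype and none of the other. The members and lists were chosen with earlier results of these data known.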

Additional observations from a re-analysis of the deposited data

Results flagged for a closer look

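Of 65 groups of 5 libraries examined for a library far from the others, 6 held one. The rule flags about 1 in 20 groups by chance where values are normally distributed. The chance rate for shares such as these, some of them 0, was not computed. Library 1 (KO at weaning) held 2.0 member variants after thinning, where the other 4 held 20.45 to 24.51, and its Lachnoclostridium share of 0.923% compares with 0% to 0.132% in the others. Library 16 (WT, co-housed) held 1.56% Roseburia, where the others held 0.0835% to 0.457%. Library 25 (KO, re-separated) held a summed member share of 7.25%, where the others held 1.02% to 2.69%, and 0.136% Tuzzerella against 0.0170% to 0.0371%. Library 29 (WT, re-separated) held 2.93% UCG-001, where the others held 0.643% to 1.05%.

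The genotype difference changed between weaning and co-housing in 5 variants (edgeR interaction contrast, change of the log2 difference of KO over WT ± SE). It rose for the unclassified Lachnospiraceae row 363, by 8.90 ± 2.34 (edgeR adjusted p = 0.0163), and for ASF356 row 240, by 13.62 ± 3.69 (edgeR adjusted p = 0.0199). The change was -16.96 ± 3.77 for UCG-001 row 270 (edgeR adjusted p = 0.00521), -12.63 ± 3.66 for Roseburia row 540 (edgeR adjusted p = 0.0331) and -8.87 ± 2.78 for the unclassified Lachnospiraceae row 282 (edgeR adjusted p = 0.0466). Each has at least 1 group at 0 reads, so these sizes depend on the prior count and are no bounds. Without library 1 the calls of rows 363, 240, 540 and 282 were lost, and without library 16 that of row 270. Row 540 was also lost without library 9, and row 282 without any of libraries 2 to 11 or 14 to 18. Row 240 could not be fitted without library 10, 11 or 13, and row 540 without library 4, 16 or 17, since each then fell below the filter.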

How the results depend on the processing

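The summed share and the thinned number of member variants moved by less than the spread between replicates under their alternatives. Counts of members restricted to 1 genotype at weaning, and of those found in the other after co-housing, moved within 1.5 times. Of 823 alternative values of 50 called features, 592 kept direction and call, 231 lost the call and 0 reversed.

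Counts of called members depended on the setting. For variants, the 14 called at weaning were 8 under DESeq2, 9 with only the groups compared and 2 without libraries 1, 5, 11 and 19, and 7 to 10 when 1 library was left out. After co-housing the 1 call became 0 under DESeq2, DESeq2 size factors, only the groups compared and without these 4 libraries, and 0 to 1 with 1 left out. From weaning to co-housing the 0 in WT mice became 2 without filter, 3 under DESeq2, 2 with only the groups compared and 4 without the 4 libraries (0 to 2 with 1 left out). The 18 in KO mice became 11, 9 and 1 under DESeq2, only the groups compared and without the 4 (7 to 20 with 1 left out). The 5 interaction calls became 2 under DESeq2 and 1 without the 4 (1 to 6), and the 1 after re-separation 2 under DESeq2 (1 to 3).

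For taxa, the 2 at weaning became 6 with library size scaling. With only the groups compared there were 0, and neither of the 2 passed the filter there. The 3 in WT mice from weaning to co-housing became 7 with library size scaling and 6 without the 4 libraries (1 to 6 with 1 left out). The 5 in KO mice became 3 under DESeq2 and 1 with only the groups compared (3 to 5). The 1 from co-housing to re-separation in KO mice became 2 without filter, under DESeq2, with only the groups compared and without the 4 libraries (0 to 1). The call was the rise of Marvinbryantia. A fall of Roseburia joined it in 3 of these settings, took its place with library size scaling, and stood with a fall of Blautia in its place with only the groups compared. The 0 interaction calls between weaning and co-housing became 1 with library size scaling, without filter and under DESeq2 (0 to 2). The cause of these changes was not tested. Left-out fits had fewer libraries, and fits of only the groups compared had fewer groups behind the spread. The filter was applied again in each such fit, so some features were no longer tested. With only the weaning groups, 19 member variants and 7 member taxa were tested, where the main fits tested 63 and 15. Keeping rows labelled uncultured apart, chosen after seeing the data, gave 2 calls at weaning and, from weaning to co-housing, 3 in WT and 6 in KO mice, the added one being the uncultured rows.

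No paired analysis was possible because the labels number the libraries 1 to 30 with no number shared between groups. Bacterial reads per library, 10491 in the smallest, limit how low a share can be seen, and bounds take 3 reads in each library with 0 reads.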

Other observations

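Several UCG-001 variants occurred in pairs whose reads kept nearly the same ratio in the libraries that held both. Row 270 had 2.27 to 3.58 times the reads of row 271 in 4 libraries with both, of 5 with either. Row 396 had 2.97 to 3.90 times those of row 397 in 4 libraries with both, of 9 with either. In the re-separation set row 1421 had 4.29 to 5.82 times the reads of row 1422 in 6 libraries with both, of 8 with either. Row 1124 had 3.00 to 3.32 times those of row 1126 in 3 libraries with both, of 4 with either. Among pairs of UCG-001 variants sharing at least 3 libraries, 4 of 14 (28.6%) had a highest ratio at most 2 times the lowest. The share was 8 of 43 (18.6%) over member pairs of 1 named genus, 64 of 776 (8.25%) over all member pairs of 1 taxon and 192 of 4048 (4.74%) over pairs of other variants of 1 taxon. The pairs were sought after their values were seen, and whether the variants of a pair come from 1 genome was not tested. Calls on both variants of such a pair may not be independent of each other.

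Within a library ASF356 and Tyzzerella were mostly a single variant, with 14 of 16 and 13 of 13 first-set libraries that held them. Roseburia reached 7 variants in 1 library and UCG-001 5. Among the provisional genera not described above, the FCS020 group had means of 0.132%, 0.216% and 0.0674% in KO mice in the order of the times, and 0.0607%, 0.131% and 0.0311% in WT mice. UCG-004 had reads in 3 of 5 KO libraries after re-separation (0.0154% ± 0.0152, SD) and in none of the 5 WT libraries, and this difference did not pass the test (edgeR adjusted p = 0.110).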
